A study of Homo sapiens with 6 samples.

Results

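The 9 genes described here encode the parts of major histocompatibility complex (MHC) class I molecules, the machinery that loads them with peptide, and their transcriptional activator. They were taken by gene symbol (HLA-B, HLA-C, HLA-E, HLA-F, B2M, TAP1, TAP2, TAPBP and NLRC5) from a table of 55765 genes, and all 9 had a row. The samples were 6 libraries of OCI-AML2, an established line of human acute myeloid leukaemia cells. In 3 libraries the cells had been exposed for 48 h to 100 nM MRT199665, which the labels name as an inhibitor of MARK kinases and which also acts on SIK kinases, and in 3 to its vehicle, whose composition is not given. Cells of both groups came from cultures grown out of single cells. The labels do not tell which clone gave which library, nor whether replicates were grown separately, so the spread between them may be technical. RNA was sequenced from the 3′ ends of messenger RNAs.

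Class I molecules are displayed on nearly all nucleated cells. A polymorphic heavy chain, encoded by genes such as HLA-B and HLA-C, pairs with the invariant light chain beta-2 microglobulin (B2M). Peptides cut by the proteasome enter the endoplasmic reticulum through a transporter made of TAP1 and TAP2, and tapasin (TAPBP) bridges that transporter to empty class I molecules. T cells read the resulting complexes, and NK cells are restrained by them. NLRC5 activates transcription of many of these genes, as CIITA does for class II genes.

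In these cells the transcripts of the classical class I molecule differed between inhibitor and vehicle by less than the spread between libraries, while TAP2 was 2.01-fold lower without passing the test over all genes. Levels are given as CPM, gene counts scaled to a common library size. HLA-B had a mean of 1403 ± 149 CPM in treated and 1322 ± 132 CPM in vehicle libraries, and B2M of 2918 ± 289 and 2995 ± 199 CPM (SD, n = 3 in each group). TAP2 had means of 19.7 ± 3.87 and 39.8 ± 8.83 CPM in the same order (SD, n = 3 in each group). HLA-E and NLRC5 were 1.26-fold and 1.32-fold lower, also without a call. Of the 9 genes 8 passed the filter on low counts, and the edgeR quasi-likelihood test called none of them higher or lower at a Benjamini-Hochberg adjusted p under 0.05. Over all 13053 genes tested, 0.85% were called higher and 0.398% lower. Unadjusted p fell under 0.05 for 3 of the 8 (HLA-E, TAP2 and NLRC5), against 14.7% of all genes tested. DESeq2 called 1 of the 8 lower, TAP2, against 148 lower and 215 higher of all 13053 genes. With limma-voom none of the 8 was called, against 50 lower and 107 higher of all genes.

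The sequences before the transcription start are shown for HLA-B and HLA-C, whose transcripts kept a near-constant ratio, and for TAP2 and TAPBP, which act at the same step and whose fold changes had opposite signs. Each is the 250 bases before the start, 5′ to 3′ on the gene's own strand, from RefSeq's GRCh38.p14, a later build than the hg19 build of the counts. RefSeq windows matched 7 of the 9 genes (HLA-E and NLRC5 had none in that table). Capitals mark 5 motifs searched on both strands, chosen with the sequences in view. They were CCAAT, the CCAAT box, and TGACG, part of the cyclic AMP response element. GAAANNGAAA and GAANNGAAA are forms of the interferon response element, and GGGANNNNCC is a pattern like a kappaB site. Capitals run on where matches overlap.
HLA-B, chr6:31357180-31357429, minus strand: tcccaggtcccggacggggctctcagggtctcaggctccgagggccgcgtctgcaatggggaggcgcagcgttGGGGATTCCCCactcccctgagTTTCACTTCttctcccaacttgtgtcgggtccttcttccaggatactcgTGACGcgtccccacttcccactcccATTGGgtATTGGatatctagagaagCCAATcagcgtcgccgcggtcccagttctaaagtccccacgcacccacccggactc
HLA-C, chr6:31272093-31272342, minus strand: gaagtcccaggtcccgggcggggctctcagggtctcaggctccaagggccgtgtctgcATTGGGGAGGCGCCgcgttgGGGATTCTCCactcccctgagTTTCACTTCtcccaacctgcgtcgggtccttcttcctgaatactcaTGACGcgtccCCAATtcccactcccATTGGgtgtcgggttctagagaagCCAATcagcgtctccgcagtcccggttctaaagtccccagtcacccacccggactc
TAP2, chr6:32838740-32838989, minus strand: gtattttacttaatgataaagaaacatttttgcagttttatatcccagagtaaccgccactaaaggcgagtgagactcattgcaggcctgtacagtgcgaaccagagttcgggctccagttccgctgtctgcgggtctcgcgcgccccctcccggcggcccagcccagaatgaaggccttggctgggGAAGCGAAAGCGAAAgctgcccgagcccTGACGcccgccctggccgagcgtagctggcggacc
TAPBP, chr6:33314079-33314328, minus strand: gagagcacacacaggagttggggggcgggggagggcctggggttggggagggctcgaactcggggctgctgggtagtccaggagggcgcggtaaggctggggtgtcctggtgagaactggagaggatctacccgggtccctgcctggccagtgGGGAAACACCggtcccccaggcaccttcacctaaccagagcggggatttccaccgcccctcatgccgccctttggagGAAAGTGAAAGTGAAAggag

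The windows of HLA-B and HLA-C were 89.0% identical over 254 aligned columns, and those of TAP2 and TAPBP 44.2% over 265. The window of HLA-F, whose counts were low, was 79.8% identical to that of HLA-B and 78.2% to that of HLA-C. All other pairs among HLA-B, HLA-C, HLA-F, B2M, TAP2 and TAPBP lay between 41.6% and 47.8%, a range that holds the value of TAP2 and TAPBP. Whether likeness of windows went with levels was not tested. HLA-B and HLA-C both held a CCAAT from 56 to 52 bases before the start, a TGACG beginning 106 and 105 bases before it, and the reverse complement of GAANNGAAA followed upstream by a kappaB-like match. TAP2 held GAAGCGAAA and GAAAGCGAAA, which overlap, between 63 and 49 bases before its start, and a TGACG from 35 to 31. TAPBP held GAAAGTGAAA at 2 overlapping places, the nearer ending 5 bases before its start. Among 35116 windows of the same length, 32.0% held CCAAT, 21.2% TGACG, 3.02% GAAANNGAAA, 6.56% GAANNGAAA and 22.6% GGGANNNNCC. Of the 7 genes with a window, 5, 4, 5, 3 and 5 held these motifs in that order. The motifs were chosen with these sequences in view, and the windows of HLA-B, HLA-C and HLA-F resemble each other. The counts are therefore no test of enrichment. TAP1 had 2 windows, for 2 starts, and was counted where either held a motif, although 1 of them held none of the 5, so these counts of genes are not on the same footing as the shares of windows. These are matches of letters in a reference sequence, and no factor's binding was measured.

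**Figure D1:**
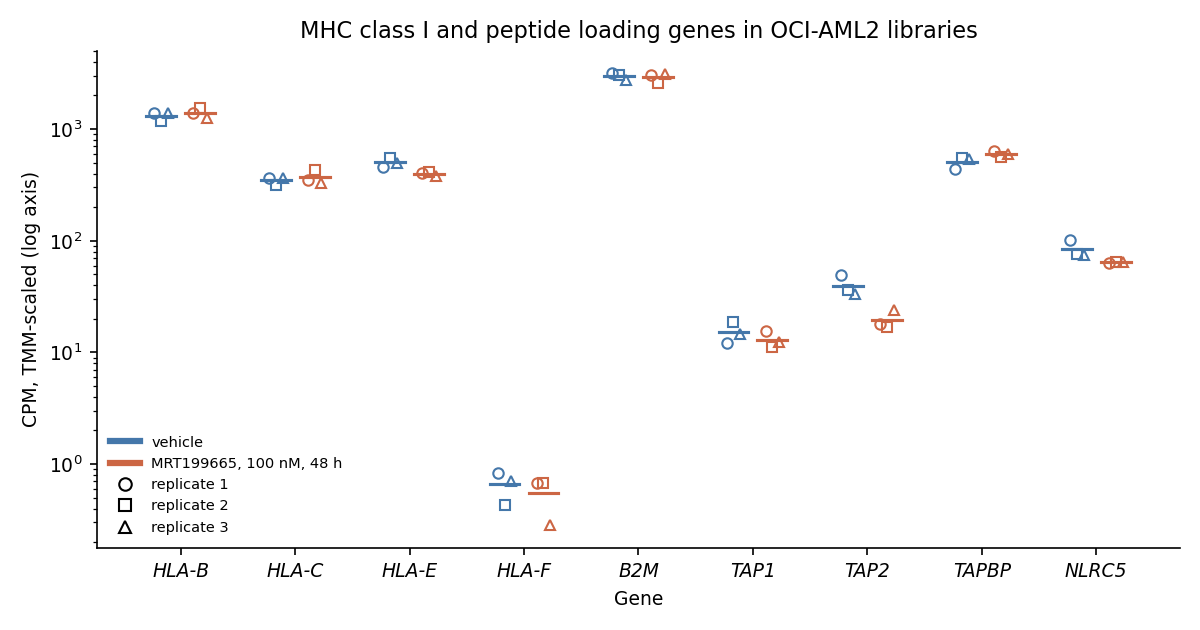
Level of each gene in each library, as CPM on a log axis, with vehicle in blue and MRT199665 in orange, 1 symbol per replicate and a bar at each group's mean. The groups stand apart for HLA-E, TAP2, TAPBP and NLRC5, and overlap for the other 5 genes.

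Among the heavy chain genes, HLA-B presents peptides to cytotoxic T cells. Its transcripts were at 1406, 1171 and 1390 CPM in vehicle replicates 1, 2 and 3, and at 1382, 1560 and 1265 CPM in MRT199665 replicates 1, 2 and 3. Both the lowest and the highest library were replicate 2 of their group, and the groups overlapped. The log2 fold change, MRT199665 over vehicle, was 0.08 ± 0.14 (SE), and its 95% interval ran from 0.854-fold to 1.32-fold (edgeR adjusted p = 0.839). HLA-C, a classical heavy chain that is also a main ligand of killer immunoglobulin-like receptors on NK cells, was at 368, 318 and 367 CPM with vehicle and at 347, 431 and 332 CPM with MRT199665, in replicate order. Its libraries fell in the same pattern as those of HLA-B, with MRT199665 replicate 2 highest and vehicle replicate 2 lowest. Its log2 fold change was 0.08 ± 0.14 (SE), with a 95% interval from 0.849-fold to 1.31-fold (edgeR adjusted p = 0.860). MRT199665 replicate 2 and vehicle replicate 2 also stood at the ends of the first principal component of all tested genes, which did not separate the groups and accounted for 46.8% of the variance. Without both of them the log2 fold changes were -0.08 for HLA-B and -0.12 for HLA-C. Class I heavy chain genes share much sequence, and rules for counting reads that match several of them were not given in the sources used here, so their levels are uncertain. In bulk RNA, fewer cells with a transcript and less of it per cell cannot be told apart.

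HLA-E, a heavy chain of limited variation that displays leader peptides of other class I chains to the CD94/NKG2 receptors of NK cells, differed from this pattern. It was at 457, 555 and 496 CPM with vehicle and at 400, 413 and 383 CPM with MRT199665, in replicate order. All 3 treated libraries were below all vehicle libraries. The log2 fold change was -0.33 ± 0.12 (SE), and the 95% interval for a single gene, from 0.658-fold to 0.956-fold, lay below 1, while the call over all genes was not made (edgeR adjusted p = 0.237). Its share of the summed CPM of HLA-B, HLA-C and HLA-E was 20.5%, 27.1% and 22.0% with vehicle and 18.8%, 17.2% and 19.3% with MRT199665. These shares did not overlap between groups (two-sided exact permutation test, p = 0.1, the smallest that 3 against 3 libraries allow, and 0.5 adjusted over the 5 ratios tested). By contrast, HLA-B was 3.83, 3.68 and 3.79 times HLA-C with vehicle and 3.98, 3.62 and 3.82 times with MRT199665 (exact permutation p = 0.9 before and after adjustment).

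HLA-F, a non-classical heavy chain, was near the detection limit. It had 10, 5 and 7 counts with vehicle and 9, 4 and 4 counts with MRT199665, 39 counts over the 6 libraries, and did not pass the filter. The upper limit set by a count of 0, which is 3 counts, was between 0.213 and 0.507 CPM depending on the library and covers counting error only. Without a filter its log2 fold change was -0.36, with a 95% interval from -1.502 to 0.79, an interval that holds changes of either sign. HLA-F-AS1, transcribed from the opposite strand, shares 535 exon bases with HLA-F in GENCODE release 29 and had 72 counts. Without the strand setting of the counting, reads of the pair within the shared exon bases cannot be told apart.

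B2M, the light chain of every class I molecule, was at 3157, 3055 and 2773 CPM with vehicle and at 3038, 2588 and 3129 CPM with MRT199665, in replicate order. The groups overlapped, with the highest library in the vehicle group and the lowest in the treated group. Its log2 fold change was -0.04 ± 0.14 (SE), and the 95% interval ran from 0.787-fold to 1.21-fold (edgeR adjusted p = 0.943). For HLA-B, HLA-C and B2M the intervals thus left out changes of 1.5-fold in either direction, whereas smaller changes were within them. B2M was 1.42, 1.495 and 1.23 times the sum of HLA-B, HLA-C and HLA-E with vehicle, and 1.43, 1.08 and 1.58 times with MRT199665. The lowest of these 6 ratios was that of MRT199665 replicate 2 (exact permutation p = 0.9 before and after adjustment). The 9 genes together took between 0.562% and 0.602% of all counts in the vehicle libraries and between 0.569% and 0.581% in the treated ones.

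The peptide transporter is a heterodimer, and its subunits did not have the same values. TAP2 was at 49.8, 36.0 and 33.4 CPM with vehicle and at 18.0, 16.9 and 24.1 CPM with MRT199665, in replicate order. Every treated library was below every vehicle library, and vehicle replicate 1 was the highest of the 6. The log2 fold change was -1.01 ± 0.20 (SE), with a 95% interval from 0.364-fold to 0.682-fold (edgeR adjusted p = 0.0553). TAP2 ranked 180 by p among the 13053 genes tested, and 163 were called. It was called by DESeq2 (adjusted p = 0.00107) and by edgeR without a low-count filter (adjusted p = 1.01e-06), and in none of the other 12 alternatives, in which the adjusted p lay between 0.0506 and 0.329. Its log2 fold change was negative in all 14 alternatives, between -1.20 and -0.81. In GENCODE release 29 TAP2 shares 2064 exon bases on the same strand with AL669918.1, a gene annotated as protein-coding that has no row of that name in the table, and rules for counting reads in shared exons were not given in the sources used here.

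TAP1, the partner subunit, was at 12.2, 18.8 and 14.8 CPM with vehicle and at 15.5, 11.2 and 12.5 CPM with MRT199665. The groups overlapped, and vehicle replicate 1, the highest library for TAP2, was the lowest of its group for TAP1. The log2 fold change was -0.22 ± 0.20 (SE), with a 95% interval from 0.630-fold to 1.18-fold (edgeR adjusted p = 0.673), and it turned to 0.05 without both replicate 2 libraries. TAP1 was 0.246, 0.521 and 0.442 times TAP2 with vehicle and 0.858, 0.660 and 0.518 times with MRT199665. These ratios overlapped between groups at a single library each, MRT199665 replicate 3 and vehicle replicate 2 (exact permutation p = 0.2, adjusted 0.5). The antisense RNA of this locus, listed as TAPSAR1, shares 456 exon bases with TAP1 in GENCODE release 29, where it is named PSMB8-AS1. TAPSAR1 had a mean of 44.5 CPM over the 6 libraries and a log2 fold change of -0.12 ± 0.16 (SE). Without the strand setting, its reads within the shared exon bases cannot be told apart from those of TAP1.

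Tapasin, encoded by TAPBP, holds class I molecules at the transporter and edits the peptides they bind. TAPBP was at 436, 554 and 538 CPM with vehicle and at 637, 561 and 603 CPM with MRT199665. The groups did not overlap, although MRT199665 replicate 2 and vehicle replicate 2 were close. Its log2 fold change was 0.24 ± 0.13 (SE), with a 95% interval from 0.957-fold to 1.45-fold (edgeR adjusted p = 0.458). TAPBP was 8.75, 15.4 and 16.1 times TAP2 with vehicle and 35.3, 33.2 and 25.02 times with MRT199665, with no test of the ratio, since the values of both genes already fix its order. Set against HLA-B, it was 0.310, 0.473 and 0.387 times with vehicle and 0.461, 0.360 and 0.477 times with MRT199665, and those ratios overlapped (exact permutation p = 0.6, adjusted 0.9).

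**Figure D2:**
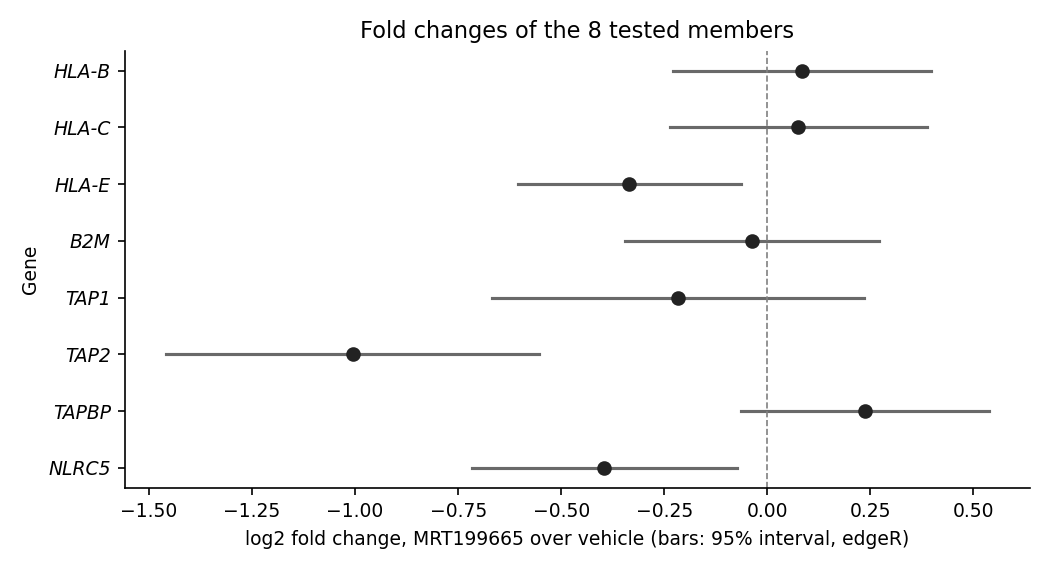
Log2 fold change, MRT199665 over vehicle, of the 8 genes that passed the low-count filter, with the 95% interval of each from edgeR, not adjusted for the number of genes. The intervals of HLA-E, TAP2 and NLRC5 lie below 0, and those of the other 5 genes include it.

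NLRC5, the transactivator of class I genes, was at 102, 76.5 and 73.9 CPM with vehicle and at 63.8, 63.9 and 64.2 CPM with MRT199665. All 3 treated libraries were below all vehicle libraries, and vehicle replicate 1 stood above its group. The log2 fold change was -0.40 ± 0.14 (SE), with a 95% interval from 0.608-fold to 0.95-fold (edgeR adjusted p = 0.239). Its log2 fold change was negative in all 14 alternatives and called in none of them, and was -0.23 at its smallest. CIITA, the related transactivator of class II genes, rose 1.91-fold, from 7.92 ± 0.257 to 15.1 ± 0.876 CPM (SD, n = 3 in each group, edgeR adjusted p = 0.0162), and was named here after its values were seen. That call was lost on leaving out treated replicate 1 (adjusted p = 0.0711), treated replicate 3 (0.135), vehicle replicate 2 (0.0587) or vehicle replicate 3 (0.127). NLRC5 was 12.5, 9.59 and 9.68 times CIITA with vehicle and 4.27, 4.45 and 3.99 times with MRT199665. The ratio is a description with no test, since NLRC5 and CIITA each already separated the groups, in opposite directions.

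**Figure D3:**
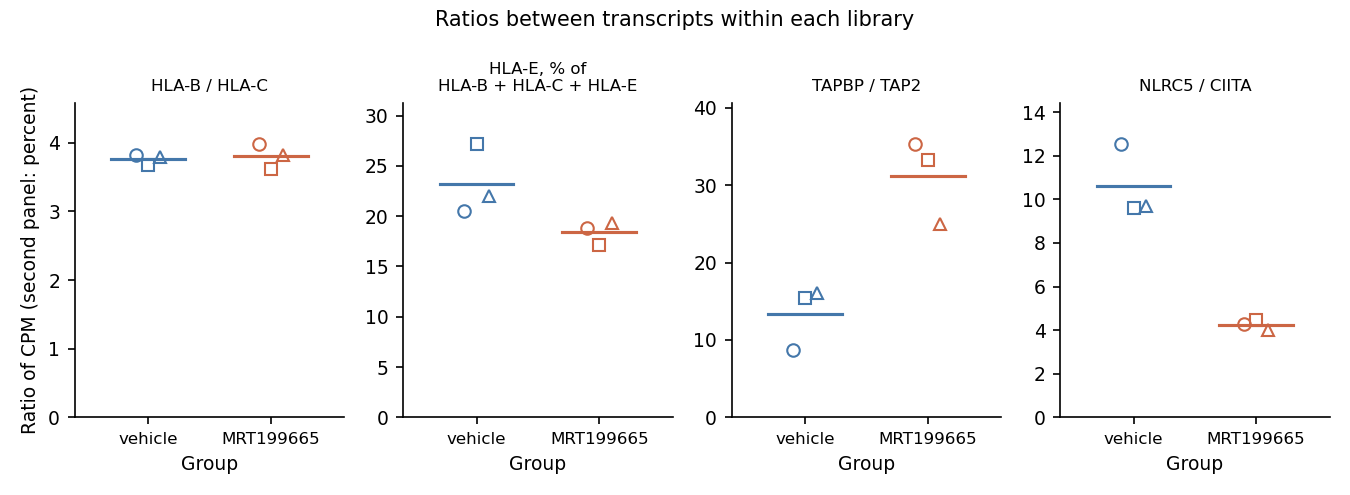
Ratios of CPM within each library for HLA-B to HLA-C, TAPBP to TAP2 and NLRC5 to CIITA, and HLA-E as a percent of the sum of HLA-B, HLA-C and HLA-E, with each axis starting at 0, 1 symbol per library and a bar at each group's mean. The first ratio lies between 3.62 and 3.98 in all 6 libraries, and the groups stand apart in the other 3 panels.

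As a set, 4 of the 8 tested genes had groups that did not overlap (HLA-E, TAP2 and NLRC5 lower, TAPBP higher), against 22.2% of all genes tested. Their median log2 fold change was -0.13, against 0.01 over all genes tested, and 3 were positive and 5 negative. The other scalings tried shifted the median gene by -0.0040 and -0.015 on the log2 scale, and neither turned the sign of a member. These values describe the 8 genes and give no test of them as a group.

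The rest of the class I pathway was taken from 4 lists of 42 genes, of which 35 were tested. FCGRT was the single gene called, higher, and none was called lower, against 0.85% and 0.398% of all genes tested. Unadjusted p fell under 0.05 for 3 of the 35 (FCGRT, THOP1 and IRF1), against 14.7% of all genes tested. DESeq2 and limma-voom also called FCGRT alone, against 215 and 107 of all 13053 genes called higher. The median log2 fold change over the 35 genes was 0.04, and 11 had groups without overlap, against 22.2% of all genes tested.

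FCGRT, the heavy chain of the neonatal Fc receptor, is a class I-like protein that also pairs with beta-2 microglobulin and recycles immunoglobulin G. It was at 14.0, 15.4 and 17.2 CPM with vehicle and at 31.1, 34.0 and 32.0 CPM with MRT199665, and rose 2.08-fold (log2 fold change 1.06 ± 0.13, SE, edgeR adjusted p = 0.00630). The 3 treated libraries were all above the vehicle libraries. The call ended without MRT199665 replicate 3 (adjusted p = 0.0539). The other tested class I-like molecules and NK cell ligands, MR1, CD1D, MICA and MICB, had log2 fold changes from -0.39 to 0.27 without a call. MICB, a ligand of the NKG2D receptor, was 1.25-fold lower (edgeR adjusted p = 0.411).

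None of 10 tested genes of peptide production and trimming was called, and their log2 fold changes lay between -0.39 and 0.17. THOP1, a peptidase that destroys peptides in the cytosol, had means of 95.8 ± 3.15 CPM with vehicle and 77.4 ± 8.82 CPM with the inhibitor (SD, n = 3 in each group, edgeR adjusted p = 0.273). PSMB9, a catalytic subunit of the immunoproteasome, was at 32.1 ± 9.39 against 39.9 ± 4.47 CPM, with overlapping groups (SD, n = 3 in each group, edgeR adjusted p = 0.509). The 5 tested chaperones of class I assembly all had log2 fold changes between 0.00 and 0.16. Among them the thiol oxidoreductase gene PDIA3 (also known as ERp57) was at 0.16 ± 0.14 (SE) and the BiP gene HSPA5 at 0.09 ± 0.15 (SE).

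Of 15 tested transcription regulators of class I genes none was called. IRF1, which binds interferon response elements, had the lowest p of them, at 29.9, 32.5 and 25.8 CPM with vehicle and 23.7, 16.9 and 19.8 CPM with MRT199665. Its groups did not overlap, its log2 fold change was -0.54 ± 0.16 (SE, edgeR adjusted p = 0.170), and it was called in none of 14 alternatives. NFYB, a subunit of the factor that binds CCAAT boxes, was 1.21-fold lower (edgeR adjusted p = 0.382).

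Class II genes and interferon-stimulated genes, lists chosen with earlier results of these data known, had other values in the same libraries. Of 8 tested class II genes, 5 were called higher and all 8 had positive log2 fold changes, with a median of 1.76, while 0.85% of all genes tested were called higher. HLA-DRA rose 4.99-fold and HLA-DMB 4.004-fold. None of the 95% intervals of the 8 tested members reached above 1.45-fold, and HLA-F was not tested. Of 19 tested interferon-stimulated genes, IFI35 (1.73-fold) and OAS1 (3.67-fold) were called higher, against the same 0.85%, and the list's median was 0.29. Neither was called when any 1 library was left out (adjusted p up to 0.197 for IFI35 and 0.191 for OAS1). A difference between these lists and the class I genes was not tested as such.

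**Figure D4:**
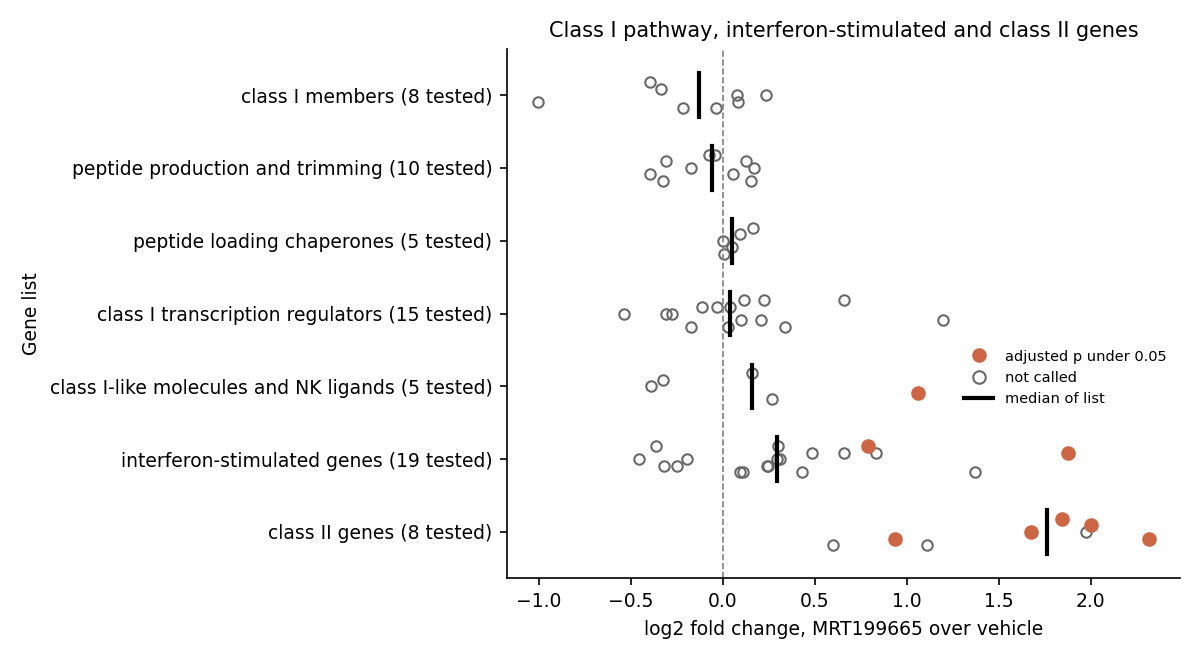
Log2 fold change, MRT199665 over vehicle, of each tested gene by list, with called genes as filled orange circles, other genes as open circles and a bar at each list's median. The class I genes lie between -1.01 and 0.24 with none called, and the 8 class II genes between 0.60 and 2.32.

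The genes whose levels over the 6 libraries were most like those of TAP2, the member with the lowest p, were SESN2, SQRDL and MND1. Likeness was the root mean square difference of log2 CPM centred per gene, among 2844 genes outside the lists with a mean of at least 50 CPM. It was 0.215 for SESN2, a stress-responsive sestrin, 0.216 for SQRDL, a mitochondrial sulfide oxidase, and 0.228 for MND1, a meiotic recombination protein. TAP2 itself was below 50 CPM in every library. Since TAP2 separated the groups, lower values with MRT199665 followed from the choice of these genes and are descriptions only. SESN2 and MND1 fell 1.84-fold and 2.11-fold (edgeR adjusted p = 0.0107 and 0.00343). SQRDL was 1.58-fold lower without a call (adjusted p = 0.0997). The call of SESN2 was lost on leaving out treated replicate 1 (adjusted p = 0.0653), treated replicate 3 (0.0539) or vehicle replicate 3 (0.0985).

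Total counts ranged from 5871097 to 14308650 per library, the lowest in MRT199665 replicate 2. The 7 listed myeloid markers had a summed level of 573 to 627 CPM with MRT199665 and 530 to 544 CPM with vehicle. PTPRC alone made up most of this, with means of 405 and 372 CPM in the same order. MPO had means of 89.7 and 65.1 CPM, SPI1 of 68.0 and 65.7 CPM, and CD33 of 41.2 and 32.9 CPM. KIT was at 1.63 CPM or less in each library, and CD34 and CEBPA had a count of 0 in all libraries. The 8 markers of T and NK cells summed to 9.89 to 11.2 CPM with MRT199665 and 7.46 to 7.94 CPM with vehicle, and NKG7 alone made up most of this, with means of 9.94 and 6.91 CPM. The defining T cell markers were at or near 0, with CD2 at 0 in all libraries, CD3E and CD3G at 0.0858 CPM or less in each, and CD3D at means of 0.219 and 0.390 CPM in the same order. B cell markers summed to 6.42 to 9.13 and 6.71 to 9.01 CPM, with MS4A1 at 0, erythroid markers at 0.0709 CPM or less, and stromal and epithelial markers at 1.66 CPM or less.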

How the data were processed

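The authors deposited whole-number counts per gene symbol for 6 libraries, made with a Lexogen 3′ kit per the labels. The submitters' processing notes name hg19, DESeq2, STAR 2.4 and HTSeq 0.6.1. Not given in the sources used here were the annotation, strand setting and read filters. Deposited counts were not normalized, as checked on their totals, and depth is given above.

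Differential expression was computed in R 4.3.3 by edgeR 4.0.16 (glmQLFit, glmQLFTest, TMM scaling, group as the only term, two-sided). Low counts were removed by filterByExpr (min.count 10, min.total.count 15). CPM were computed on TMM-scaled totals. An SE was the log2 fold change divided by the square root of F, and 95% intervals used the test's degrees of freedom. Ratios were tested by exact permutation of libraries on a log scale, with Benjamini-Hochberg adjustment over 5. Ratios of TAPBP to TAP2 and of NLRC5 to CIITA were not tested, since both genes of each separate the groups in opposite directions. Libraries of the same group were not copies of each other, since their counts differed beyond sampling noise (lowest chi-square per degree of freedom 8.59).

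Alternatives were 2 scalings, 2 low-count filters, DESeq2 1.42.0, limma-voom (limma 3.58.1), the replicate number as a block, and leaving out libraries. Members and lists were chosen with earlier results of these data known. Named genes were all members, called genes of the 4 pathway lists, the 2 lowest p per list, and the 3 most like the member with the lowest p. CIITA and TAPSAR1 were named outside this rule, after their values were seen. The test was checked on simulated counts for the same 13053 genes. It called 8.96% of 67 genes changed 1.5-fold, 50.7% of 67 changed 2-fold and 90.9% of 66 changed 4-fold. Of its 107 calls 7 were false. A gene that was not called may therefore still have changed by such smaller amounts.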

Additional observations from a re-analysis of the deposited data

How the results depend on the processing

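The count of members called higher was 0 in all 14 alternatives, and the count called lower was 0 except for 1, TAP2, with DESeq2 and without a low-count filter. HLA-E, TAP2, TAPBP and NLRC5 kept their sign in all 14. Log2 fold changes turned sign without both replicate 2 libraries for HLA-B (-0.0834), HLA-C (-0.1175), B2M (0.0522) and TAP1 (0.0477). Leaving out 1 library gave values from -0.0066 to 0.139 for HLA-B (negative without vehicle replicate 2), from -0.0478 to 0.1338 for HLA-C (negative without MRT199665 replicate 2 or vehicle replicate 2) and from -0.1041 to 0.0415 for B2M (positive without MRT199665 replicate 2 or vehicle replicate 1). The cause was not tested. Other pathway genes called higher numbered 2 without a filter (RFXANK added) and 0 to 1 when 1 library was left out.

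Of all genes, 373 were higher and 271 lower without a filter, and 215 and 148 with DESeq2. Leaving out 1 library gave between 29 and 78 higher and between 20 and 55 lower genes. No pairing of libraries by replicate number was seen, although 3 libraries per group cannot exclude a weak one and the labels do not tell. Deviations of same-numbered libraries correlated at -0.55, -0.47 and 0.02, and no library correlated best with its own number. With a replicate block 7 genes were higher and 5 lower, no member was called, and of the other pathway genes 0 were called. At 39 counts over all libraries, HLA-F did not pass the filter, and the cause of its low count was not tested.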
